A study of Homo sapiens with 12 samples.

Results

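The transcriptional response to the lipid-derived electrophile HNE was compared between 2 HEK293T lines, one expressing a control hairpin (shControl) and one expressing a hairpin against HuR (shHuR). HEK293T is a human embryonic kidney cell line. The quantity of interest was the difference of differences: the log2 change from untreated to HNE-treated cells in shHuR minus the same change in shControl, which is the line by treatment interaction. It was formed from 8 of the 12 libraries of the series: untreated shControl, shControl given 25 µM HNE (alkyne) for 18 h, untreated shHuR, and shHuR given 25 µM HNE (alkyne) for 18 h, with 2 biological replicates in each group. The other 4 libraries came from cells of both lines given 225 µM H2O2 for 18 h and served to estimate the spread between replicates. Both lines, controls included, had been transduced with a lentiviral hairpin vector and selected with puromycin. Each line was made with a single hairpin sequence, so effects of HuR loss and other effects of that line cannot be told apart. The comparison cells were untreated, and no vehicle is named in the labels. The question addressed, as the series title frames it, is what HuR contributes to the state of the transcriptome under electrophile stress.

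HuR, encoded by ELAVL1, is an RNA-binding protein that attaches to U-rich and AU-rich stretches of many messenger RNAs and can alter their stability and translation. HNE, or 4-hydroxynonenal, is a reactive aldehyde released when membrane lipids are oxidised, and it modifies cysteine residues of proteins. One of its best known targets is KEAP1, which in resting cells holds the transcription factor NRF2 (NFE2L2) for degradation. When KEAP1 is modified, NRF2 builds up, binds antioxidant response elements in DNA and switches on genes for heme breakdown, iron storage, glutathione synthesis and thioredoxin reduction.

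The hairpin that defines the shHuR line is printed here because the whole comparison rests on it. Its capitals mark the 21 bases identical to the target messenger RNA, followed by the loop and the complementary strand.
shHuR hairpin oligo: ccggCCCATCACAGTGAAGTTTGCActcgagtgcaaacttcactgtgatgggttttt
All 21 target bases lie in the coding sequence of ELAVL1, in exon 5 of 6, at chr19:7967669-7967689 on the minus strand of GRCh38, and no other GENCODE 29 gene held an exact match.

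ELAVL1 itself, the targeted gene, was measured at 90.5 and 86.0 CPM (counts scaled to a common library size) in untreated shControl and at 92.7 and 97.9 CPM in HNE-treated shControl. In shHuR it stood at 70.4 and 70.1 CPM untreated and at 69.3 and 73.1 CPM after HNE. All 4 shHuR libraries were below all 4 shControl libraries, and the RNA was reduced, not absent. The log2 response of ELAVL1 to HNE was 0.11 (SE 0.0702) in shControl and 0.02 (SE 0.0712) in shHuR, giving an interaction of -0.09 (95% interval -0.31 to 0.12, edgeR adjusted p = 0.873).

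The 8 libraries held 24855946 to 29907258 counts each, and 16005 of the 23615 deposited genes passed the filter on low counts. All 10 HEK293T markers were found. Their summed level was 811 to 850.3 CPM in untreated shControl, 751 to 866 CPM in HNE-treated shControl, 679 to 735 CPM in untreated shHuR and 707 to 719 CPM in HNE-treated shHuR, with PAX2 and LHX1 near 0, at no more than 0.489 and 1.26 CPM. The 15 markers of fibroblasts, leukocytes, endothelium and hepatocytes summed to 11.9 to 13.6 CPM in untreated shControl, 13.4 to 16.5 CPM in HNE-treated shControl, 12.9 to 15.2 CPM in untreated shHuR and 11.6 to 13.7 CPM in HNE-treated shHuR. None was at 0 in all 8 libraries, and the defining genes PTPRC, CD3E and PECAM1 had at most 2 counts, 1 count and 2 counts. One group was less even than the others by a chi-square measure. The chi-square per degree of freedom over genes, which sets squared differences between replicates against sampling noise, was 21.9 for HNE-treated shControl. It was 5.50 for untreated shControl, 9.28 for untreated shHuR and 2.96 for HNE-treated shHuR. For the H2O2 groups it was 10.6 in shControl and 5.73 in shHuR. The Pearson correlation of log2 CPM between replicates set that group less apart, at 0.991 against 0.992 for H2O2-treated shControl. In the other groups the correlation was 0.995 or 0.996. Since these are RNA levels of whole cultures, a smaller number of expressing cells and less RNA per cell cannot be told apart.

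No gene passed the test for a different HNE response in the 2 lines. At an adjusted p under 0.05, edgeR's quasi-likelihood test called 0 of 16005 genes (0.00%), and the lowest adjusted p was 0.432. The unadjusted p was under 0.05 for 1077 genes (6.73%), of which 502 (3.14%) responded more positively in shHuR and 575 (3.59%) more negatively. DESeq2 called 5 genes and limma on the deposited FPKM values called 3. Leaving out the H2O2 libraries of shHuR one at a time gave 1 call each, and leaving out HNE-treated shControl replicate 1 gave 87 calls (32 higher, 55 lower in shHuR), in a fit that assumes the lone remaining HNE-treated shControl library to vary like the other groups. Without replicate 2 of that group the count was 0. Keeping all genes regardless of their counts gave 103.

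The precision allows a statement on size. Among the 11571 genes with at least 5 CPM in their highest group, the median standard error of the interaction was 0.144 on the log2 scale, and the 95% interval lay wholly between -1 and 1 for 11139 of them (96.3%) and between -0.5 and 0.5 for 7018 (60.7%). For most genes at that level, then, a response differing by more than 2-fold between the lines lay outside the interval. Responses to HNE were small in both lines, with a median absolute log2 change of 0.130 in shControl and 0.115 in shHuR over all tested genes. Among the 288 genes with an unadjusted p under 0.05 in both lines, 265 had the same sign (138 higher and 127 lower with HNE) and 23 had opposite signs, 9 of them higher in shHuR and 14 higher in shControl. The lines have their own untreated cells, so these responses share no library, but both used the same estimate of spread.

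**Figure D1:**
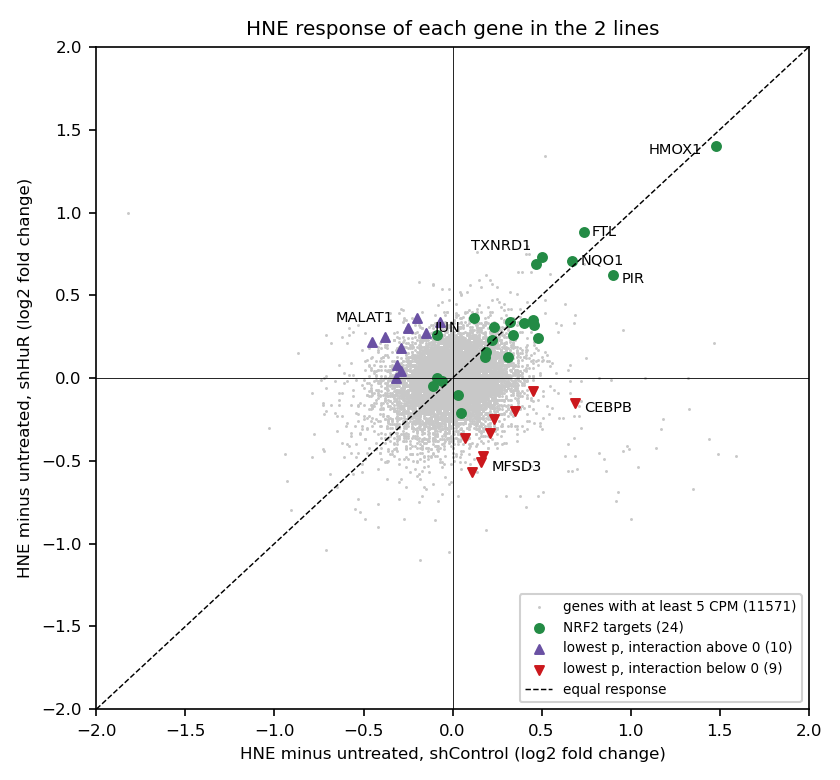
Log2 fold change from untreated to HNE-treated cells in shControl (horizontal axis) and in shHuR (vertical axis) for 11571 genes with at least 5 CPM in the highest group, with 5 genes lying outside the plotted range. The dashed line marks equal responses, on which HMOX1, FTL and NQO1 lie close, while the lowest-p genes (10 above and 9 below 0) lie off it by their selection.

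HNE raised HMOX1 and FTL, both targets of NRF2, in each line. In shControl 3 of 16005 genes were called (0.0187%), all of them higher: HMOX1, FTL and PIR. In shHuR 12 genes were called (0.0750%), 6 higher (0.0375%) and 6 lower (0.0375%), and HMOX1, FTL and TXNRD1 were among the higher ones. The shControl count fell to 0 without untreated replicate 1 and to 1 without untreated replicate 2, and it was 5 without either H2O2 replicate of shControl and 859 without HNE-treated replicate 1. The shHuR count was between 3 and 5 when any one library of shHuR or of untreated shControl was left out, and 62 and 61 without HNE-treated shControl replicates 1 and 2. DESeq2 called 71 genes in shControl and 107 in shHuR.

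HMOX1, heme oxygenase 1, which cleaves heme to biliverdin, iron and carbon monoxide, had the largest response of the genes called in both lines. Its level was 9.34 and 10.6 CPM in untreated shControl and 25.0 and 30.5 CPM after HNE. In shHuR it was 11.1 and 10.7 CPM untreated and 25.7 and 31.7 CPM after HNE. Treated and untreated libraries did not overlap in either line, and the treated libraries of the 2 lines did. The log2 response was 1.48 in shControl (SE 0.145, edgeR adjusted p = 0.00128) and 1.40 in shHuR (SE 0.144, adjusted p = 0.000895). Their difference was -0.08, with a 95% interval from -0.51 to 0.36 (adjusted p = 0.957). In the unfiltered limma fit HMOX1 was not called in shControl (limma adjusted p = 0.0704) or in shHuR (0.0562). Its shControl call was lost without untreated shControl replicate 1 (adjusted p = 0.0925).

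FTL, the light chain of the iron store ferritin, was at 113 and 113 CPM in untreated shControl and at 196 and 183 CPM after HNE. In shHuR the levels were 109.7 and 130.3 CPM untreated and 208 and 233 CPM after HNE. Again treated libraries were clear of untreated ones in each line, and the shHuR treated libraries were both above the shControl treated ones. FTL rose by 0.74 in shControl (log2, edgeR adjusted p = 0.00661) and by 0.88 in shHuR (adjusted p = 0.000895), a difference of 0.13 (95% interval -0.13 to 0.40). In the limma fits on FPKM values FTL was not called in shControl (limma adjusted p = 0.0972 to 0.121). In shControl the call was lost without either untreated replicate (adjusted p = 0.257 and 0.190). FTL and the heavy chain FTH1 have many processed copies in the genome, and how reads shared with those were counted is not given in the sources used here.

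TXNRD1, thioredoxin reductase 1, which regenerates reduced thioredoxin, was at 260.2 and 262 CPM in untreated shControl and at 352 and 383 CPM after HNE. In shHuR it went from 251 and 219.9 CPM to 372 and 411 CPM. The untreated levels of shHuR were below those of shControl and the treated levels overlapped. The log2 response was 0.50 in shControl (edgeR adjusted p = 0.0586, above the threshold) and 0.73 in shHuR (adjusted p = 0.000895). A call in one line and not in the other did not amount to a difference between them: the interaction was 0.24 (95% interval 0.01 to 0.47, unadjusted p = 0.0445, adjusted p = 0.727).

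PIR, an iron-containing nuclear protein, was at 15.7 and 17.2 CPM in untreated shControl and at 29.7 and 31.8 CPM after HNE. Its shHuR levels were 18.4 and 13.8 CPM untreated and 23.5 and 25.6 CPM after HNE, so both treated libraries of shHuR lay between the untreated and the treated ones of shControl. PIR rose by 0.90 in shControl (log2, edgeR adjusted p = 0.0298), and its response in shHuR was 0.62 (adjusted p = 0.105). The interaction was -0.28 (95% interval -0.67 to 0.10, adjusted p = 0.768). PIR is the least secure of these calls, and 10 of 24 alternatives ended it. Its deposited counts were partly fractional, and the shControl call was lost when HNE-treated shControl replicate 2 (adjusted p = 0.114), untreated shControl replicate 1 (0.382) or 2 (0.190), or HNE-treated shHuR replicate 1 (0.0719) or 2 (0.0735) was left out.

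**Figure D2:**
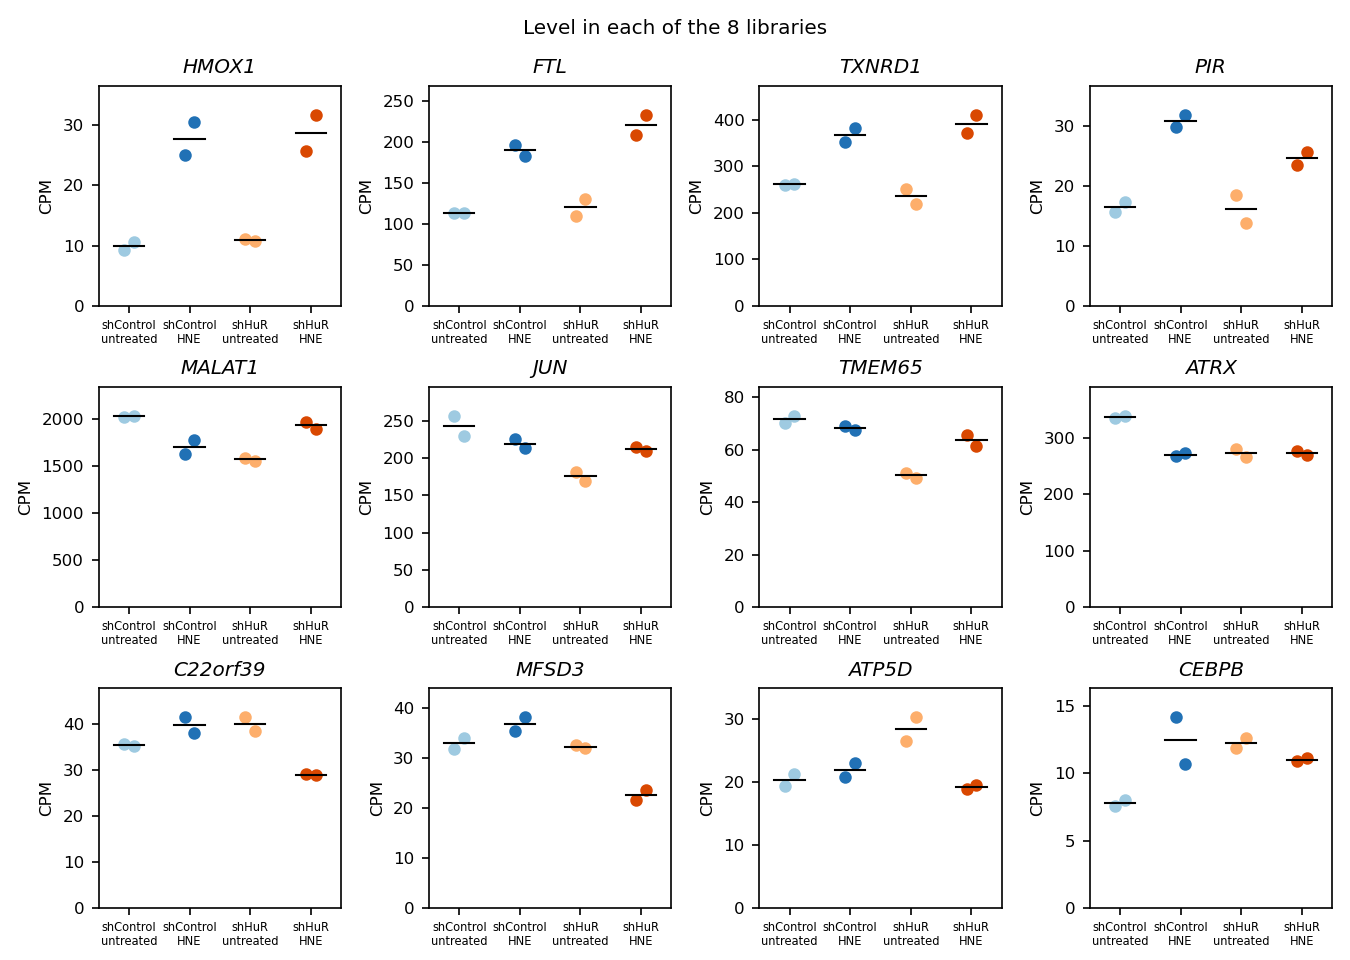
Level in CPM (vertical axis, from 0) of 12 genes in each of the 8 libraries, with each point a library and each bar a group mean. For HMOX1, FTL, TXNRD1 and PIR the HNE-treated libraries stand above the untreated ones in both lines, while MALAT1, JUN and TMEM65 are lowest in untreated shHuR and C22orf39 and MFSD3 are lowest in HNE-treated shHuR.

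Promoters of PIR and TXNRD1 are shown because the data bear on genes that respond to HNE and because both hold the core letters of the antioxidant response element. The motif searched was TGACNNNGC on either strand, in the window from 250 bases before to 50 bases after each start in RefSeq (GRCh38.p14), and 3702 of 27305 promoters of that length (13.6%) held it. Of the 13 genes called in either line 10 had an entry and 4 held the motif: PIR, TXNRD1, LGALS3BP and PLEKHG4. Capitals mark the matches.
PIR promoter: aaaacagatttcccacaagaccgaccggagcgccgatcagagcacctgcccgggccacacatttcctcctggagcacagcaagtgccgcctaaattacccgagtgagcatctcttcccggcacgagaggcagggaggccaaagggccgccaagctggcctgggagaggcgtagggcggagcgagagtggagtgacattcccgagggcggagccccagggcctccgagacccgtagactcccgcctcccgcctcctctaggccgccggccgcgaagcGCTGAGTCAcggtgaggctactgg
TXNRD1 promoter: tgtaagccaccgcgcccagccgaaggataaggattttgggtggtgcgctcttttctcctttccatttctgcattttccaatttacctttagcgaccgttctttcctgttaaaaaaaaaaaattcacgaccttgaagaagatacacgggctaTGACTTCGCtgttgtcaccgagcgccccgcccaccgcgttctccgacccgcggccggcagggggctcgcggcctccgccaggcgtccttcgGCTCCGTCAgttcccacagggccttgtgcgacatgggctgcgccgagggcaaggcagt
The PIR promoter is chrX:15493284-15493583 on the minus strand, and its single match begins 26 bases after the start and overlaps the letters TGAGTCA of an AP-1 site. The TXNRD1 promoter is chr12:104215529-104215828 on the plus strand, with matches beginning 99 and 8 bases before the start. LGALS3BP and PLEKHG4 also held matches, and both fell with HNE in shHuR. A match describes the letters and shows no binding, and the FTL window held none.

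The list of NRF2 targets, which includes HMOX1, FTL, PIR and TXNRD1, had median responses above those of all genes in each line. Of 35 listed targets 29 were tested, and their median log2 response was 0.25 in shControl (22 of 29 above 0) and 0.26 in shHuR (24 of 29), beside 0.00 and -0.01 over all genes. In shControl 15 of the 29 had an unadjusted p under 0.05 upward and 0 downward, beside 6.04% and 5.66% of all genes, and in shHuR 15 upward and 1 downward, beside 4.17% and 4.78%. The median interaction was 0.02, with 2 members above and 1 below 0 at an unadjusted p under 0.05, beside 3.14% and 3.59% of all genes. None of these single members other than HMOX1, FTL, PIR and TXNRD1 passed the adjusted test in a line.

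NQO1, a quinone reductase, was low, at 4.52 and 5.08 CPM in untreated and 7.54 and 7.77 CPM in HNE-treated shControl, against 7.12 and 5.80 CPM and then 10.0 and 11.0 CPM in shHuR. Its responses were 0.67 and 0.71 and its interaction 0.04 (95% interval -0.42 to 0.50). GCLM, the modifier subunit of the enzyme that begins glutathione synthesis, responded by 0.40 in shControl and 0.33 in shHuR. FTH1 responded by 0.46 and 0.32, and its shControl response was 0.58 without HNE-treated replicate 1 and 0.32 without replicate 2.

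The catalytic partner of GCLM, GCLC, had one of the larger differences in the list. It was at 54.9 and 49.2 CPM in untreated and 43.9 and 54.1 CPM in HNE-treated shControl, and at 49.9 and 43.6 CPM and then 54.5 and 57.5 CPM in shHuR. Treated and untreated libraries overlapped in shControl and did not in shHuR. The responses were -0.09 and 0.26 and the interaction 0.35 (95% interval 0.03 to 0.67, unadjusted p = 0.0331, edgeR adjusted p = 0.712). Without HNE-treated shControl replicate 1 it was 0.21, and without replicate 2 it was 0.50. SRXN1, sulfiredoxin, which repairs oxidised peroxiredoxins, responded by 0.12 and 0.36, an interaction of 0.24 (95% interval -0.02 to 0.50).

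In the other direction were PGD of the pentose phosphate pathway, with responses of 0.05 and -0.21 (interaction -0.26, unadjusted p = 0.0205), and SLC7A11, the cystine importer, with 0.31 and 0.13 (interaction -0.17, 95% interval -0.39 to 0.04). OSGIN1 did not exceed 0.510 CPM in any of the 8 libraries, too low to tell.

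Among the regulators, NFE2L2 stood at 22.2 and 20.3 CPM untreated and 24.4 and 24.5 CPM treated in shControl, and at 22.8 and 26.2 CPM untreated and 23.5 and 26.9 CPM treated in shHuR. Its responses were 0.20 and 0.04, with an interaction of -0.16 (95% interval -0.47 to 0.15). KEAP1, which marks NRF2 for degradation, was lowest in untreated shControl. It stood there at 60.1 and 56.8 CPM and after HNE at 65.8 and 76.5 CPM, while in shHuR it was at 74.0 and 72.3 CPM untreated and 71.0 and 74.8 CPM treated. The responses were 0.28 and -0.00 and the interaction -0.29 (95% interval -0.53 to -0.04, unadjusted p = 0.0248, edgeR adjusted p = 0.712), and the latter was -0.38 and -0.18 without HNE-treated shControl replicates 1 and 2. Of the 14 regulators and partners of NRF2, none was above and KEAP1 alone was below 0 at an unadjusted p under 0.05. Over all genes 3.14% were above and 3.59% below 0 at that p. The median interaction of the 14 was -0.09.

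Beyond NRF2 targets, HNE in shHuR also raised DFFA, RHOB and SNRPA1 and lowered 6 genes. These 9 calls were each lost without HNE-treated shHuR replicate 1 (edgeR adjusted p = 0.0856 to 0.577), without its replicate 2 (0.0919 to 0.652) or without untreated shHuR replicate 1 (0.0579 to 0.159). All of them but C15orf38 were also lost without untreated shHuR replicate 2 or either untreated shControl replicate (0.0708 to 0.474). Of 25 alternatives run for each, 15 ended the call of RHOB, 14 those of ACTR1B, KIF1A and LGALS3BP, 13 those of PLEKHG4 and SNRPA1, and 10 those of DFFA and CALCB. DFFA, the inhibitor of the caspase-activated nuclease, went from 175 and 167 CPM to 237 and 239.9 CPM in shHuR and from 167 and 173 CPM to 193 and 213 CPM in shControl. Every treated library was above every untreated one, with responses of 0.48 (edgeR adjusted p = 0.0291) and 0.25 (0.239) and an interaction of 0.23. SNRPA1, a protein of the U2 splicing particle, went from 89.8 and 79.7 CPM to 141 and 144 CPM in shHuR (0.75, adjusted p = 0.0409) and from 93.7 and 96.7 CPM to 105 and 149 CPM in shControl (0.41). Its shControl response was 0.15 without HNE-treated replicate 2, and its interaction of 0.33 was then 0.60, against 0.12 without replicate 1. RHOB, a small GTPase, was even within groups, at 83.1 and 79.8 CPM and then 108 and 108 CPM in shHuR (0.40, adjusted p = 0.0475) and at 82.1 and 84.1 CPM and then 89.9 and 89.3 CPM in shControl (0.11), an interaction of 0.30 (unadjusted p = 0.00780).

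The 6 genes that fell in shHuR also had negative responses in shControl, all smaller. LGALS3BP, a secreted glycoprotein that binds galectins, was at 6.73 and 6.94 CPM in untreated and 5.94 and 6.13 CPM in HNE-treated shControl, and at 6.23 and 6.75 CPM and then 2.52 and 3.54 CPM in shHuR. Only the treated shHuR libraries stood apart. Its responses were -0.18 and -1.10 and its interaction -0.92 (95% interval -1.44 to -0.40, unadjusted p = 0.00201, edgeR adjusted p = 0.712).

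C15orf38 had the same shape, at 27.9 and 28.8 CPM then 25.7 and 28.0 CPM in shControl, and 31.7 and 31.2 CPM then 19.2 and 18.4 CPM in shHuR. The interaction was -0.66 (95% interval -0.93 to -0.39, unadjusted p = 0.000108, edgeR adjusted p = 0.432), on partly fractional counts. CALCB, which encodes a calcitonin gene-related peptide, was lower in shHuR before treatment too, at 24.7 and 25.2 CPM then 17.5 and 19.9 CPM in shControl and 16.6 and 14.2 CPM then 8.14 and 8.39 CPM in shHuR, with responses of -0.42 and -0.90. For PLEKHG4 the responses were -0.20 and -0.59, for KIF1A, a kinesin motor, -0.18 and -0.49, and for ACTR1B, a dynactin subunit, -0.17 and -0.45. Among these 12 genes the interaction thus ran from -0.92 to 0.33. Their shHuR response chose them, so these differences are given as a description.

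**Figure D3:**
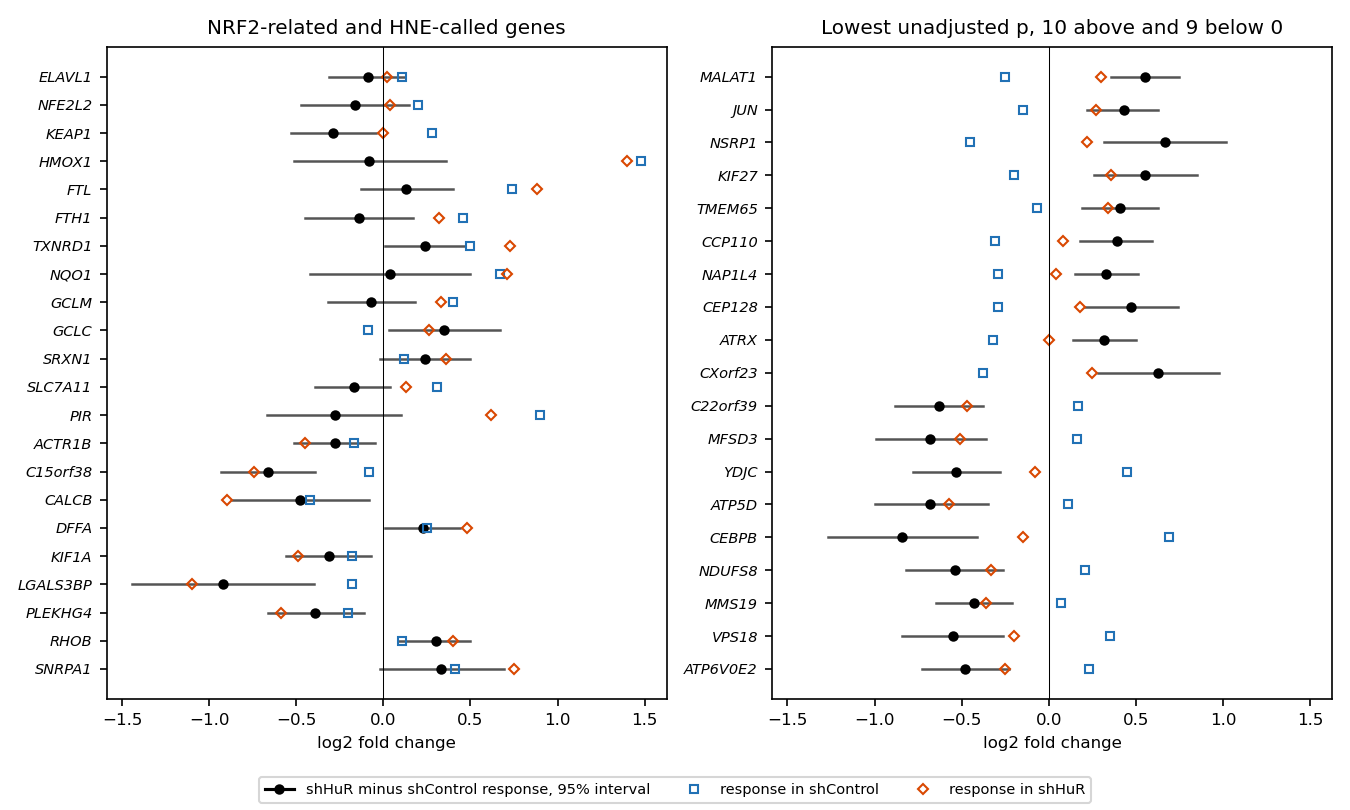
Log2 responses to HNE in shControl (open squares) and shHuR (open diamonds), and the difference shHuR minus shControl with its 95% interval (filled circles), for the genes of the NRF2 pathway and the genes called in a line (left) and for the lowest-p genes, 10 above and 9 below 0 (right). On the left the intervals of HMOX1, FTL, FTH1 and NQO1 cover 0; on the right every interval lies to one side of 0 by selection.

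The genes with the lowest p for the interaction are given next as a description, since none passed the adjusted test and they were picked by that p. The lowest of all was MALAT1, a long noncoding RNA kept in nuclear speckles. It was at 2026 and 2037 CPM in untreated and 1632 and 1775 CPM in HNE-treated shControl. In shHuR it was at 1589.8 and 1556 CPM untreated and 1969 and 1900.1 CPM treated. The groups within each line did not overlap and the direction was opposite, so treated shHuR came near untreated shControl. The responses were -0.25 and 0.30 and the interaction 0.55 (SE 0.0904, 95% interval 0.36 to 0.75, unadjusted p = 2.73e-05, edgeR adjusted p = 0.432). Leaving out single libraries gave 0.50 to 0.61, and DESeq2 gave an adjusted p of 0.000112.

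JUN, an AP-1 transcription factor whose RNA is among those reported to bind HuR, had the same form. It was at 257 and 230.1 CPM then 225 and 213 CPM in shControl, and at 181 and 169.7 CPM then 215 and 209 CPM in shHuR. Untreated shHuR was below the other 3 groups, which spanned 209 to 257 CPM. The responses were -0.15 and 0.27 and the interaction 0.43 (95% interval 0.22 to 0.63, unadjusted p = 0.000636, edgeR adjusted p = 0.712). TMEM65, a mitochondrial membrane protein, shared this shape, at 70.2 and 73.0 CPM then 68.9 and 67.4 CPM in shControl and 51 and 49.4 CPM then 65.7 and 61.4 CPM in shHuR (interaction 0.41, 95% interval 0.19 to 0.63).

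A second shape, seen in ATRX and NAP1L4, placed the shift in shControl. ATRX, a chromatin remodeller, was at 335 and 339 CPM in untreated and 267 and 272 CPM in HNE-treated shControl, and at 279.5 and 266 CPM then 276 and 270.0 CPM in shHuR. The other 3 groups stood at one level and untreated shControl above them. Its responses were -0.32 and 0.00, an interaction of 0.32. NAP1L4, a histone chaperone, was instead lowest of the 4 groups in HNE-treated shControl, at 177 and 180.1 CPM against 216 to 230.0 CPM in the other 6 libraries, an interaction of 0.33. In H2O2-treated shControl NAP1L4 was at 186 and 184 CPM, close to that level. CCP110 and CEP128, proteins of the centriole and centrosome, had interactions of 0.39 and 0.47, and NSRP1, a splicing regulator of nuclear speckles, 0.67. The kinesin KIF27 had an interaction of 0.55 (responses -0.20 and 0.36) and CXorf23 one of 0.63 (-0.38 and 0.25). All 10 had negative responses in shControl, and 9 of the 10 had positive responses in shHuR, with ATRX at 0.00. Picking genes by an interaction above 0 itself favours these signs.

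On the negative side, among genes with whole counts and at least 5 CPM that were not small RNAs, the lowest p belonged to C22orf39. It was at 35.7 and 35.4 CPM then 41.7 and 38.1 CPM in shControl, and at 41.7 and 38.6 CPM then 29.1 and 29 CPM in shHuR. HNE-treated shHuR was the lowest of the 4 groups. Its interaction was -0.63 (95% interval -0.88 to -0.38, unadjusted p = 8.59e-05, edgeR adjusted p = 0.432, DESeq2 adjusted p = 0.0407). MFSD3, a membrane transporter of the major facilitator family, was likewise lowest in HNE-treated shHuR, at 21.7 and 23.6 CPM against 31.8 to 38.3 CPM in the other 6 libraries (interaction -0.68). After H2O2 MFSD3 was at 25.9 and 26.1 CPM in shHuR, also below untreated shHuR, and at 40.4 and 32.6 CPM in shControl.

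ATP5D and NDUFS8 encode parts of the mitochondrial energy chain, the delta subunit of ATP synthase and an iron-sulfur subunit of complex I. ATP5D was at 19.3 and 21.2 CPM then 20.8 and 23.0 CPM in shControl, and at 26.5 and 30.3 CPM then 18.9 and 19.5 CPM in shHuR, with untreated shHuR the highest of the 4 groups (interaction -0.68, 95% interval -1.0 to -0.35). After H2O2 ATP5D was at 22.5 and 25.6 CPM in shControl and 24.8 and 26.1 CPM in shHuR, all below untreated shHuR. NDUFS8 was at 47.2 and 48.6 CPM then 49.4 and 61.7 CPM in shControl, and at 57.6 and 56.9 CPM then 44.6 and 46.3 CPM in shHuR. Its interaction of -0.54 was -0.38 without HNE-treated shControl replicate 2 and -0.69 without replicate 1, and in the latter fit it was called (edgeR adjusted p = 0.0329). MMS19, which helps to insert iron-sulfur clusters, had an interaction of -0.43.

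CEBPB, a stress-responsive transcription factor, was low in untreated shControl. CEBPB stood at 7.57 and 7.98 CPM there, at 14.2 and 10.7 CPM after HNE, and at 10.9 to 12.6 CPM in the shHuR libraries (responses 0.69 and -0.15, interaction -0.84, 95% interval -1.27 to -0.41). Without HNE-treated shControl replicate 1 the CEBPB interaction was -0.60. YDJC (interaction -0.53), the vacuolar sorting gene VPS18 (-0.55) and the proton pump subunit ATP6V0E2 (-0.48) also had positive responses in shControl and negative ones in shHuR.

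Opposite responses with an unadjusted p under 0.05 in both lines were found for 23 genes, and the 6 with the lowest interaction p were MALAT1, JUN, NDUFS8, ATP6V0E2, EIF3F and C19orf25. EIF3F, a translation initiation subunit, was at 130.3 and 124 CPM then 140.3 and 144 CPM in shControl, and at 127 and 139 CPM then 107 and 118 CPM in shHuR, with responses of 0.16 and -0.24. C19orf25 responded by 0.28 and -0.29, an interaction of -0.57 that was -0.68 and -0.44 without HNE-treated shControl replicates 1 and 2. Of the 5 genes that DESeq2 called, besides MALAT1 and C22orf39, 3 were readthrough genes named for 2 neighbours, COMMD3-BMI1, TMEM110-MUSTN1 and PMF1-BGLAP. All 3 had fractional counts. COMMD3-BMI1 was at 9.63 and 0.0358 CPM in untreated shControl, 9.21 and 13.9 CPM after HNE, 0.00 and 0.00 CPM in untreated shHuR and 20.4 and 8.50 CPM after HNE, so replicates of one group differed from near 0 to full level. The reads of such genes overlap those of their neighbours, and their levels are uncertain. The 3 genes called by limma on FPKM values, MIR935, SNORD20 and MIR3935, had too few counts to be tested by edgeR.

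Small nucleolar RNAs of the box C/D class, which guide methylation of ribosomal RNA, had the largest median difference in size of any list, and it depended on single shControl libraries. Of 252 deposited box C/D genes 72 were tested, 131 had 0 counts in the 8 libraries, and 38 of the tested ones had at least 10 counts in each library. The median log2 response of the 72 was 0.98 in shControl and -0.41 in shHuR, and their median interaction was -1.43. A gene could pass the filter on low counts through the library in which it was high, so these medians describe the tested genes and not the class. For 63 of the 72, the highest of the 8 libraries was HNE-treated shControl replicate 2. Without that library the median interaction was -0.59, without its partner -2.08, and without untreated shControl replicate 2 -2.18. What set these libraries apart was not tested.

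The 3 box C/D RNAs with the lowest p are printed to show what class of molecule this is, from GENCODE 29 on GRCh38. Capitals mark the letters TGATG of box C within 20 bases of the 5′ end and CTGA of box D within 20 bases of the 3′ end, which 222 of the 275 SNORD sequences in that reference (80.7%) have.
SNORD88C: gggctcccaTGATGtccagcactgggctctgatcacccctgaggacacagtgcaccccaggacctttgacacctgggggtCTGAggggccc
SNORD104: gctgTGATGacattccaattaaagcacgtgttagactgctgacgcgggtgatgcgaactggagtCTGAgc
SNORD24: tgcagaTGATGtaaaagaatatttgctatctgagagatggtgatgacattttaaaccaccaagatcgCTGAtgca
SNORD88C lies at chr19:50802328-50802418 on the minus strand within C19orf48, SNORD104 at chr17:64146083-64146152 on the plus strand within SNHG25, and SNORD24 at chr9:133349396-133349470 on the plus strand within RPL7A.

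SNORD88C was at 2.76 and 3.58 CPM then 4.30 and 7.89 CPM in shControl, and at 3.05 and 2.14 CPM then 1.38 and 1.82 CPM in shHuR. Both shHuR treated libraries were lowest and HNE-treated shControl replicate 2 was highest. Its interaction was -1.62 (95% interval -2.58 to -0.66, unadjusted p = 0.00284, edgeR adjusted p = 0.712), and -1.13 without that replicate. SNORD24 was at 1.40 and 2.86 CPM then 3.04 and 9.93 CPM in shControl, and at 1.87 and 0.882 CPM then 0.825 and 1.13 CPM in shHuR, an interaction of -2.06 that was -0.98 without the same replicate.

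SNORD104 had an interaction of -2.01 and SNORD76 one of -1.58, which were -1.29 and -0.79 without HNE-treated shControl replicate 2. The same held for RNU12, the U12 RNA of the minor spliceosome. RNU12 was at 173 and 335 CPM then 307 and 653 CPM in shControl and at 249 and 144 CPM then 116 and 119 CPM in shHuR (interaction -1.66, and -1.02 without HNE-treated shControl replicate 2). The host genes of SNORD88C and SNORD24 had interactions nearer 0. C19orf48 had an interaction of -0.12 (95% interval -0.32 to 0.08) and RPL7A one of -0.25 (-0.60 to 0.10). SNHG25, the host of SNORD104, was not among the tested genes, and hosts of the other RNAs were not analysed here.

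Summed over all box C/D genes, the share of library counts was 0.178% and 0.272% in untreated and 0.198% and 0.319% in HNE-treated shControl, and 0.187% and 0.143% in untreated and 0.155% and 0.155% in HNE-treated shHuR. In shControl replicate 2 was above replicate 1 in both conditions, and the 2 treatments overlapped. The difference of the log2 responses was -0.27 (two-sided exact permutation p = 0.50 over 36 arrangements, which cannot go below 0.0556). Treatment labels were permuted within each line, which assumes no HNE effect in either line. The test therefore cannot decide whether the responses of the lines differ. The H/ACA and Cajal body RNAs, which guide the other main modification, pseudouridine, went less far: 116 of 129 were tested, with a median interaction of -0.27, 2 above and 7 below 0 at an unadjusted p under 0.05 (3.14% and 3.59% of all genes), and a median of 0.07 without HNE-treated shControl replicate 2. Within that class SCARNA6 (0.43), SCARNA5 (0.32), SNORA74A (0.40), SNORA68 (0.57) and SCARNA23 (0.66) had the lowest p above 0. Without HNE-treated shControl replicate 1 SNORA68 was at 1.05 and SCARNA23 at 0.35, and without replicate 2 they were at 0.23 and 1.05.

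**Figure D4:**
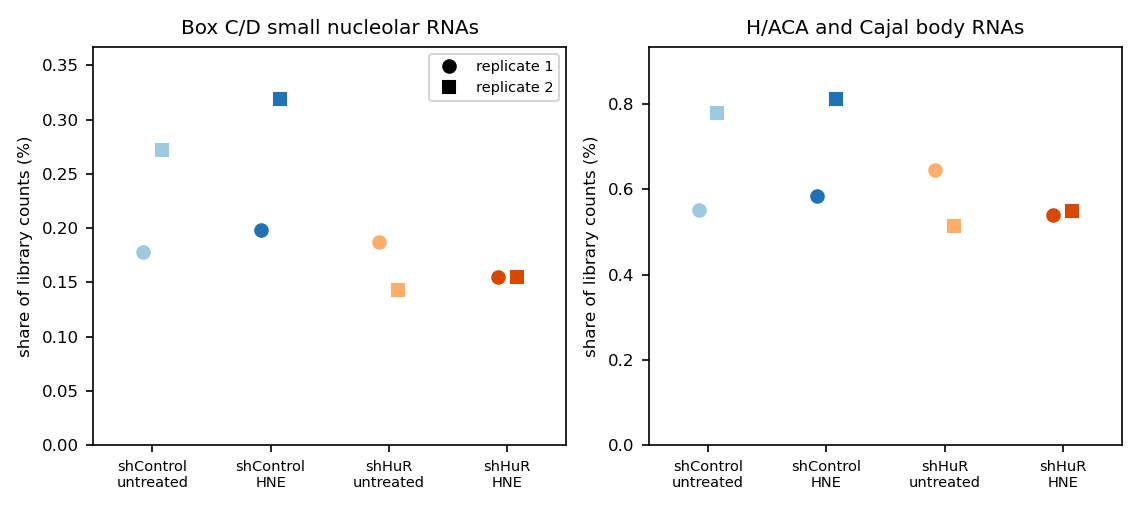
Share of library counts (%) taken by box C/D RNAs (left) and by H/ACA and Cajal body RNAs (right) in each of the 8 libraries, circles for replicate 1 and squares for replicate 2. In shControl replicate 2 lies above replicate 1 in both conditions, at 0.272% and 0.319% for box C/D RNAs.

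The interaction followed the base composition of the transcripts. Over 10652 genes that were matched to GENCODE 29, were not small RNAs and had at least 5 CPM, its correlation with GC content was -0.45 (Pearson) and -0.53 (Spearman), and with length 0.25 (Spearman). These points are genes measured in the same 8 libraries and are not independent replicates. In the quartile of lowest GC content, 30.2% to 41.6%, the median response was -0.04 in shControl and 0.07 in shHuR and the median interaction 0.10. In the quartile of highest GC content, 55.6% to 74.5%, the medians were 0.07, -0.06 and -0.15. The share of genes with an unadjusted p under 0.05 above 0 went from 8.64% to 0.338% across the quartiles, and the share below 0 from 0.150% to 10.6%.

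The same tilt was present in single libraries. The median of the highest GC quartile minus that of the lowest, as log2 deviations from the mean of the 8 libraries, was -0.06 and -0.13 in untreated shControl, -0.05 and 0.10 in HNE-treated shControl, 0.03 and 0.17 in untreated shHuR and -0.04 and -0.01 in HNE-treated shHuR. Replicates of HNE-treated shControl and of untreated shHuR thus differed by amounts that were not small beside the differences between groups. Both untreated shHuR libraries were above both untreated shControl ones. Among the named genes, the 9 matched of the 10 above 0 had a median GC content of 40.3% and the 8 matched of the 9 below 0 one of 59.2%. With offsets for GC content and length, 741 of 14551 genes (5.09%) had an unadjusted p under 0.05, against 979 (6.73%) in the same genes without, and 486 were common to both, all with the same sign. No gene was called by either fit. With these offsets several interactions were nearer 0: 0.17 for ATRX (0.32 without offsets), -0.16 for KEAP1 (-0.29), -0.14 for ACTR1B (-0.28), -0.30 for YDJC (-0.53), -0.42 for MFSD3 (-0.68), -0.37 for C19orf25 (-0.57) and -1.06 for SNORD88C (-1.62). Others were further from 0, among them FTL at 0.25 (0.13), SLC7A11 at -0.33 (-0.17) and SCARNA6 at 0.66 (0.43). The median of the box C/D genes was -0.86 and that of the H/ACA and Cajal body RNAs 0.08. MALAT1 was at 0.45, JUN at 0.50 and C22orf39 at -0.59, and ATP5D and C15orf38 had no value in that fit.

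**Figure D5:**
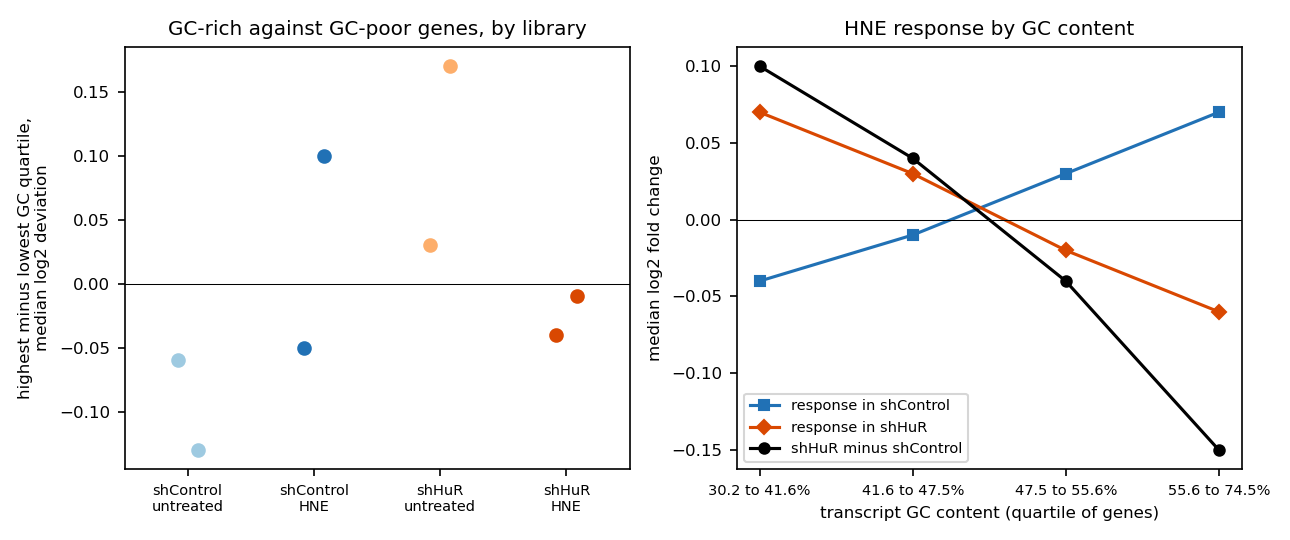
Left, median log2 deviation of the most GC-rich quartile of genes minus that of the most GC-poor quartile, for each of the 8 libraries. Right, median log2 response to HNE in shControl (squares) and shHuR (diamonds) and their difference (circles) by quartile of transcript GC content, where the difference goes from 0.10 to -0.15.

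The other gene lists had medians between -0.16 and 0.08, apart from the 6 tested markers of other cell types at -0.41, of which 0 had an unadjusted p under 0.05. Oxidative phosphorylation genes, 83 tested of 88, stood at the lower end. Their median response was 0.09 in shControl and -0.05 in shHuR, with a median interaction of -0.16, 1 above and 12 below 0 at an unadjusted p under 0.05, beside 3.14% and 3.59% of all genes. Besides ATP5D and NDUFS8 the 12 included the complex I genes NDUFA2 (-0.42), NDUFS7 (-0.42), NDUFB7 (-0.43) and NDUFA3 (-0.49) and the complex III genes UQCRC1 (-0.24) and CYC1 (-0.30). Without HNE-treated shControl replicate 2 the median was -0.05, and without replicate 1 it was -0.26. Cytosolic ribosomal protein genes, 83 tested of 88, had a median interaction of -0.10, with 0 above and 7 below 0, among them RPL41 (-0.50), RPS28 (-0.41) and FAU (-0.37). Without HNE-treated shControl replicate 2 that median was -0.01. Many ribosomal protein genes have processed copies, so their counts are uncertain. In the quartile of highest GC content described above, the median interaction was -0.15. There 10.6% of genes were below 0 at an unadjusted p under 0.05. The GC content of these lists was not compared with it.

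Lists tied to electrophile defence beyond NRF2 held single members on either side at an unadjusted p under 0.05, beside 3.14% above and 3.59% below 0 over all genes. Of the glutathione and thioredoxin systems 34 of 35 were tested, with median responses of 0.15 and 0.03, a median interaction of -0.11, and 2 above (GCLC and TXNRD1) and 2 below 0, the peroxiredoxin PRDX2 (-0.31) and the glutathione transferase GSTM2 (-0.68). Of the enzymes that clear aldehydes and quinones 25 of 31 were tested, with a median interaction of -0.07, 0 above and 3 below 0, led by the epoxide hydrolase EPHX2 at 8.56 then 7.6 CPM in shControl and 8.95 then 5.46 CPM in shHuR on average (interaction -0.54). Heme and iron genes, 16 of 18, had a median of 0.01 with none on either side.

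Stress pathways outside NRF2 held 0 called genes in either line. The members counted here had an unadjusted interaction p under 0.05, which 3.14% of all genes had above and 3.59% below 0. Heat-shock targets, 19 tested of 20, had median responses of 0.12 and 0.14 and a median interaction of 0.01, with 1 above 0, the chaperone HSPA4L (0.25). ATF4 targets, 29 of 30, had medians of 0.06, -0.06 and -0.12, with 1 above, ATF3 (0.34), and 5 below 0. The 5 were CEBPB, the mitochondrial carboxykinase PCK2 (-0.40), ATF4 itself (-0.21), the glycyl-tRNA synthetase GARS (-0.20) and SHMT2 of serine metabolism (-0.19). Endoplasmic reticulum stress genes, 22 of 22, had a median interaction of -0.06, with the stress sensor ATF6 above (0.29) and SDF2L1 below 0 (-0.50). For p53 targets, 20 of 22, the median was -0.05 with RRM2B (0.28) above. Immediate early genes, 26 of 27, had a median of 0.02 and 3 above 0: JUN, ATF3 and KLF4 (1.09, at under 4 CPM throughout).

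RNAs reported to bind HuR had a median near that of all genes, and members are counted above or below 0 as before, beside 3.14% and 3.59% of all genes. All 35 were tested, with median responses of -0.00 and 0.02 and a median interaction of -0.01, JUN above and KEAP1 below 0. Binders of AU-rich elements, 17 of 19, had a median of 0.02 with none on either side. Splicing factors of the hnRNP and SR families, 33 of 33, had 0.04 with HNRNPA3 (0.24) above, and the RNA interference machinery, 13 of 17, had 0.08 with DGCR8 (-0.26), the microprocessor subunit, below. The remaining lists were alike: glycolysis and HIF targets, 33 of 34, -0.09 with ALDOA (-0.29) and PGAM1 (-0.23) below; SREBP targets, 31 of 34, -0.09 with LSS (-0.38) and MVK (-0.35) below; metallothioneins and zinc transporters, 16 of 22, -0.01 with SLC39A6 (0.25) above and SLC39A3 (-0.39) below; clustered histone genes, 50 of 73, -0.08 with 1 above and 3 below; and proteasome subunits, 44 of 48, -0.01 with none. Medians were 0.00 in shControl, -0.01 in shHuR and -0.00 for the interaction over all genes tested.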

How the data were processed

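RNA sequencing measured gene expression in 12 HEK293T libraries (ribosomal RNA removed, directional single-end reads, per the labels' protocols). The submitters' processing notes name cutadapt 1.8, Bowtie2 2.2, TopHat2 2.1, Cufflinks 2.2, Cuffnorm and Cuffdiff, and the build GRCh37 (hg19), without roles. The estimated counts deposited by the authors for each symbol were partly fractional (516 tested genes) and were rounded. The deposited FPKM values, scaled by the authors to length and library size, served in alternative fits alone. Reads carry no molecular identifiers, so counts are not independent molecules.

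Genes passing filterByExpr (minimum count 10) were scaled with TMM and tested with edgeR 4.0.16 (R 4.3.3), a quasi-likelihood test on 6 group means of all 12 libraries with Benjamini-Hochberg adjustment over 16005 genes and a threshold of 0.05. The H2O2 libraries entered for the estimate of spread, which left 6 residual degrees of freedom. Fold changes are log2, and intervals are 95%. The biological coefficient of variation was 8.32%.

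Alternatives were DESeq2 1.42.0, limma 3.58.1 on log2(FPKM + 1) and log2(FPKM + 0.1) at a mean FPKM of at least 1 and without a filter, size factors of DESeq2's kind, library size alone, no filter, a mean CPM of at least 1, a replicate block, the 8 libraries alone, and each library left out. GC content and length offsets, genes with whole counts, and a fit without small RNA genes were added after seeing the data. GC content and length came from GENCODE 29 (GRCh38), which matched 90.9% of tested symbols.

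Named genes were a set list around ELAVL1, KEAP1 and NRF2, the 10 lowest interaction p in each direction among genes with whole counts, at least 5 CPM and no small RNA, the 5 lowest in each direction among small RNAs, all genes called in a line, genes called for the interaction by DESeq2 or limma, and 6 genes with opposite responses; 2 genes these rules name are not reported here. Genes printed from the 25 lists had an unadjusted interaction p under 0.05. The members and lists were chosen with earlier results of these data known. The tests were tested on simulated data.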

Additional observations from a re-analysis of the deposited data

How the results depend on the processing

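The interaction gave 0 calls in the 16005 genes and 0 under library size alone, RLE factors, a mean CPM of at least 1, the 8 libraries alone, GC content and length offsets, whole counts and no small RNA genes. It gave 5 with DESeq2, 103 without a filter, and 3, 1 and 2 with limma on log2(FPKM + 1), log2(FPKM + 0.1) and unfiltered log2(FPKM + 1). The shControl count of 3 was 71 with DESeq2, 329 without a filter, 13 with GC and length offsets and 5 without small RNA genes. The shHuR count of 12 was 107, 198, 38 and 28 under these, 7 with library size alone, 7 with the 8 libraries, and 6, 8 and 2 with the limma fits. Leaving out single libraries gave 0 to 87 calls for the interaction, 0 to 859 in shControl and 3 to 62 in shHuR. The cause was not tested. With a replicate block the counts were 0, 2 and 6. Over genes, the replicate 1 minus replicate 2 differences of the untreated and HNE-treated groups correlated by -0.11 to 0.05. What a shared replicate number marks is not given in the labels.

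For 57 genes, interactions kept their sign and side of the threshold in 1356 of 1403 alternative values, 35 passed the threshold and 12 changed sign. Values of the following genes changed sign when single libraries were left out, in most cases from a value near 0 but not for SNORD24, TMEM110-MUSTN1 and OSGIN1. In shHuR the ranges were -0.03 to 0.03 for ATRX, -0.02 to 0.06 for ELAVL1, -0.04 to 0.03 for KEAP1, -0.06 to 0.14 for NFE2L2, -0.30 to 0.60 for SCARNA23, -0.08 to 0.26 for SCARNA5, -0.01 to 0.17 for SNORA74A, -0.93 to 0.15 for SNORD24 and -1.23 to 0.07 for TMEM110-MUSTN1. In shControl they were -0.24 to 0.05 for GCLC and -1.23 to 1.55 for OSGIN1. For the interaction they were -0.15 to 0.03 for GCLM, -0.24 to 0.07 for HMOX1, -0.11 to 0.19 for NQO1 and -0.34 to 2.44 for OSGIN1. With GC and length offsets the HMOX1 interaction was 0.05, the TMEM65 response in shControl 0.00, and the shHuR responses 0.06 for KEAP1, 0.02 for YDJC and -0.05 for ATRX. ATRX was -0.01 with library size alone and -0.00 at a mean CPM of at least 1. Under RLE factors, library size alone, GC and length offsets and each of the 8 libraries left out, 227 list medians moved by less than the spread between replicates and 48 by more. With 2 replicates a group, the median standard error of 0.176 limits what could be called.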

Other observations

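The H2O2-treated libraries entered the fits for their spread, and their levels of the genes described above are given here as values. MALAT1 was at 1573 and 1741 CPM in shControl and at 1545 and 1504 CPM in shHuR after H2O2. All 4 libraries were below untreated shControl, as HNE-treated shControl was, and untreated and H2O2-treated shHuR were close together. JUN was at 252 and 249 CPM in shControl and at 164 and 166 CPM in shHuR, near the untreated level of each line. HMOX1 was at 10.4 and 10.4 CPM in shControl and at 9.36 and 11.7 CPM in shHuR, close to the 9.34 to 11.1 CPM of untreated cells. FTL was at 119 and 131 CPM in shControl, above both untreated libraries of that line, and at 114 and 120.2 CPM in shHuR, within the untreated range.

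LGALS3BP stood at 6.90 and 6.30 CPM in shControl and at 6.35 and 6.34 CPM in shHuR after H2O2, so its low level was seen in HNE-treated shHuR and in no other group. RNU12 was at 371 and 188 CPM in shControl and at 111 and 211 CPM in shHuR, so replicates given H2O2 also differed from each other by more than 1.5-fold in both lines.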
